A study of Homo sapiens with 2 samples.

Results

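The genes described here are 38 genes of macroautophagy: the machinery that builds the autophagosome, the ATG8 proteins that coat it, and the receptors that load it. They were chosen by function and matched by symbol to a count table of 19927 genes, in which all 38 were present. The data come from Huh7, an established human hepatocellular carcinoma cell line. One library was made from cells carrying a control hairpin (shControl, genotype label WT), and 1 from cells carrying a hairpin against PPIL1 (shPPIL1, hairpin number 1, genotype label PPIL1 knockdown). PPIL1 is a cyclophilin-type prolyl isomerase of the spliceosome, and the series asks how its knockdown alters gene expression.

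Autophagy encloses cytoplasm in a new double membrane and delivers it to the lysosome. The ULK1 kinase complex starts the process, and a class III phosphatidylinositol 3-kinase built around PIK3C3 and BECN1 marks the membrane with its lipid. ATG9A and ATG2 supply membrane, a pair of ubiquitin-like conjugation systems attaches ATG8 proteins to it, and receptors such as SQSTM1 tie cargo to ATG8. In liver cells the pathway is known for turning over protein aggregates, mitochondria and lipid stores.

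Each group held 1 library, so no difference below has a replicate check, no test between conditions was possible, and no p-value is given. Counted reads numbered 41015345 in shControl and 41165401 in shPPIL1. PPIL1, the targeted gene, had 1505 reads in shControl and 104 in shPPIL1, which left 6.79% of the control level (95% counting interval 5.51 to 8.29%) and matches the labels. The 8 hepatocyte markers, among them ALB, AFP and HNF4A, summed to 10814 FPKM (fragments scaled to gene length and library total) in shControl and 11227 in shPPIL1, which fits the labelled cell type. The 4 fibroblast and 4 endothelial markers summed to 2.12 FPKM or less in either library. The 4 leukocyte markers summed to 243 FPKM in shControl and 199 in shPPIL1. Most of this was LYZ, with 13650 and 11091 reads and a ratio of 0.798 (0.778 to 0.819), and CD68 had 1333 and 1249 reads. The defining markers PTPRC and CD3E had 10 reads or fewer in either library. In the following, "higher" and "lower" refer to shPPIL1 against shControl, and each ratio is shPPIL1 over shControl with an exact 95% interval (Clopper-Pearson) that covers counting error only. Because the RNA is from whole cultures, a change in every cell and a larger change in some of the cells cannot be told apart.

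Most of the autophagy genes lay close to equal in these libraries, and ATG2B and MAP1LC3B were the exceptions on the low side. Genes below 1 CPM (counts scaled to the library total after its adjustment by TMM, described below) in both libraries were set aside. This left 36 of the 38 members among 12540 kept genes. A gene was called when it differed by at least 1.2-fold with an interval that excluded 1. By that rule 1 member was higher, ATG14, and 2 were lower, ATG2B and MAP1LC3B. These are 2.78% and 5.56% of the kept members, against 8.32% and 9.52% of all kept genes, so the members were not called more often than other genes. Among the 9678 kept genes with read numbers within the members' range, 5.6% were called higher and 7.75% lower.

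The members' median log2 ratio was 0.01 (middle 50% from -0.07 to 0.11). The median over all kept genes was -0.0017 (middle 50% from -0.13 to 0.12). Of the 36 kept members, 25 (69.4%) lay within 1.1-fold, compared with 61.2% of the genes of like read number. By the interval alone, 10 members (27.8%) were higher and 7 (19.4%) lower, against 24.6% and 26.4% of all kept genes and 26.2% and 29.2% of those of like read number. At 1.5-fold 0 members were higher and 1 was lower, ATG2B, against 2.02% and 2.22% of all kept genes and 0.269% and 0.744% of those of like read number. Counting error of a member's ratio reached 1.01-fold for SQSTM1, the member with the most reads, and 1.16-fold for ATG4C, the kept member with the fewest reads.

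**Figure D1:**
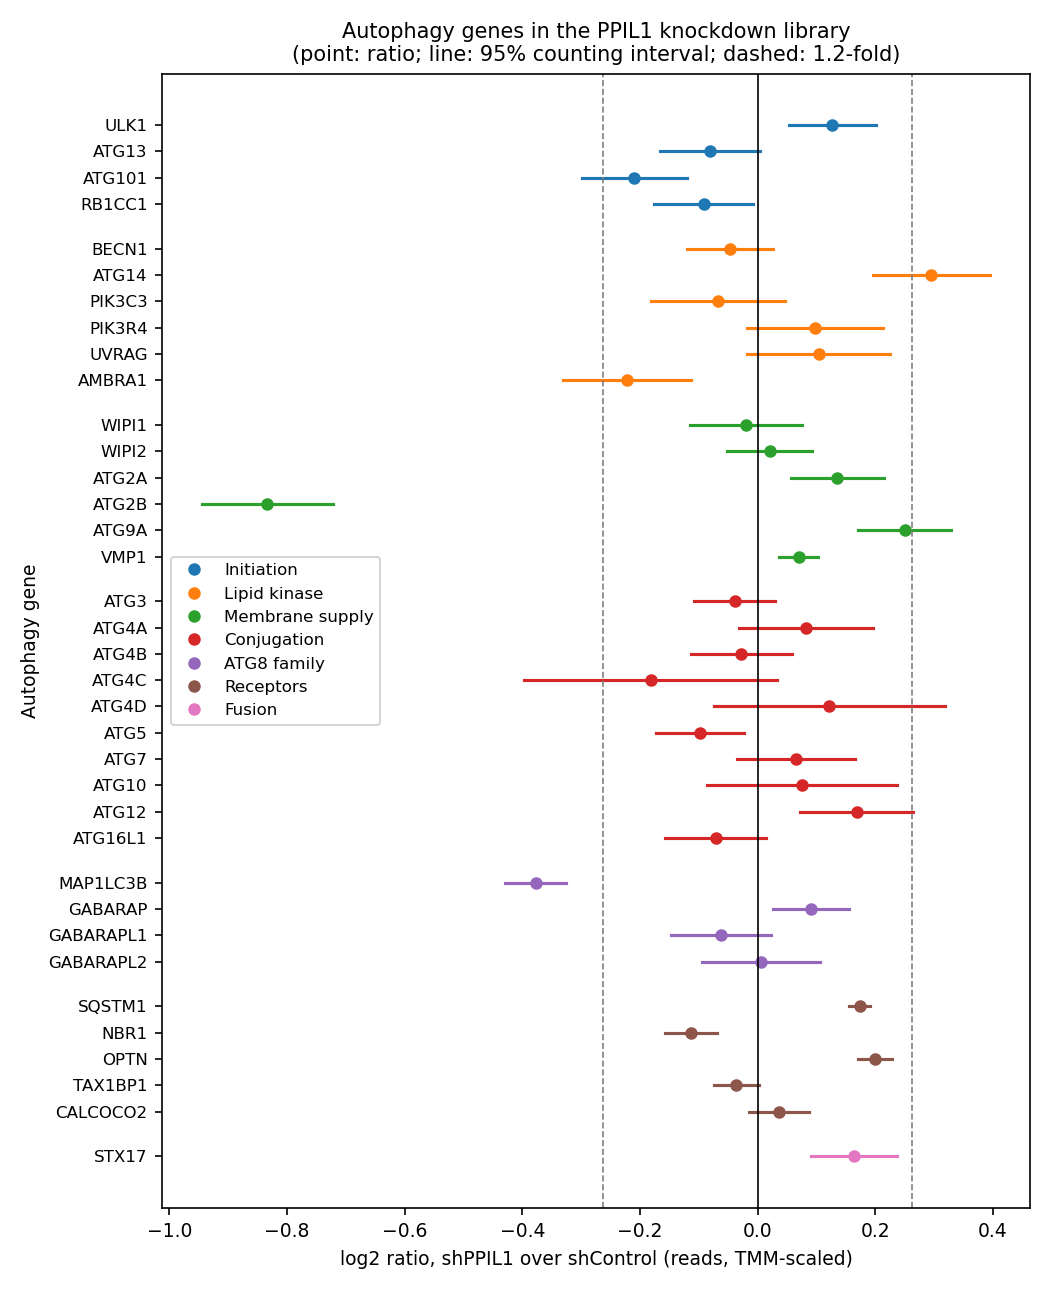
Log2 ratio of shPPIL1 over shControl (x axis) for the 36 kept autophagy genes (y axis), coloured by role, with 1 library per group. Points are ratios, lines are 95% counting intervals and dashed lines mark 1.2-fold. ATG2B stands apart at -0.83, followed by MAP1LC3B at -0.38, and ATG14 lies highest at 0.30.

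**Figure D2:**
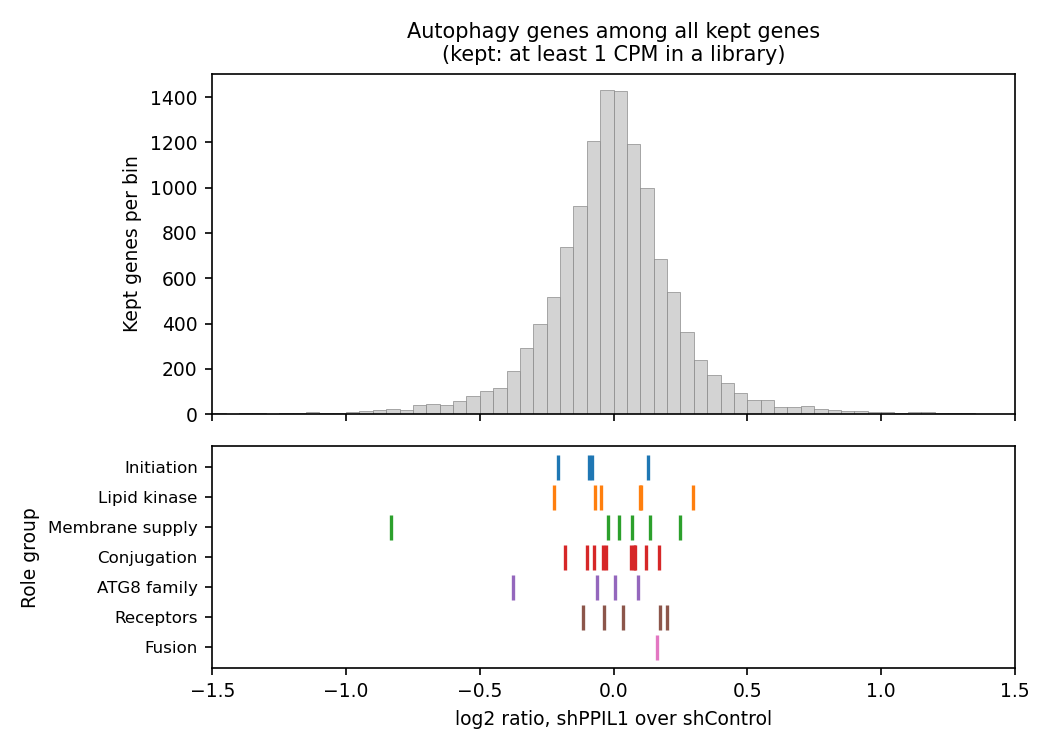
Upper panel: number of kept genes per bin of 0.05 on the log2 ratio axis. Lower panel: each tick is 1 kept autophagy gene, by role group. All ticks but that of ATG2B fall where other genes are common.

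ATG2B had the largest difference of the 36 kept members. It encodes a lipid transfer protein that bridges the endoplasmic reticulum and the growing membrane. The ATG2B row had 1810 reads in shControl and 1034 in shPPIL1, or 3.35 and 1.91 FPKM. The ratio was 0.561 (0.519 to 0.606), that is 1.78-fold lower. Of the 12540 kept genes, 114 (0.909%) had a ratio as low or lower. ATG2B lies at chr14:96279195-96363341 (GRCh38, minus strand), and its transcript with the longest coding sequence in GENCODE release 29 has 42 exons.

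ATG2A, its paralog with the same activity, went the other way. It had 2470 and 2762 reads, or 11.6 and 12.9 FPKM, a ratio of 1.10 (1.04 to 1.16). Relative to ATG2A, ATG2B stood at 0.511 of its control proportion (0.465 to 0.562), a value that does not depend on how the libraries are scaled. Per length, ATG2B made up 22.4% of the summed FPKM of the pair in shControl and 12.8% in shPPIL1. The summed FPKM of the pair was 15.0 in shControl and 14.9 in shPPIL1, so the lower ATG2B level and the higher ATG2A level left the total nearly level.

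The other genes of membrane supply were near equal or slightly higher. ATG9A, the lipid scramblase of the vesicles that seed the membrane, had 2417 and 2925 reads and a ratio of 1.19 (1.13 to 1.26), just under the 1.2-fold limit. VMP1, a scramblase of the endoplasmic reticulum, was abundant at 95.2 and 101 FPKM, with a ratio of 1.05 (1.03 to 1.07). WIPI1 and WIPI2, which bind the lipid made by the kinase, had ratios of 0.986 (0.923 to 1.05) and 1.01 (0.965 to 1.07). Their proportion to each other was also level, at 1.03 (0.946 to 1.12) for WIPI2 over WIPI1. The median log2 ratio of the 6 genes was 0.05, and 0.07 without ATG2B.

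Within the ATG8 family, MAP1LC3B was lower and the GABARAP genes were not. MAP1LC3B encodes LC3B, the ATG8 protein most used as a marker of autophagosomes. It had 6851 reads in shControl and 5369 in shPPIL1, or 77.8 and 60.7 FPKM. The ratio was 0.770 (0.743 to 0.798), and 5.69% of kept genes had a ratio as low or lower. The gene lies at chr16:87392336-87404774 (GRCh38) and has 4 exons.

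GABARAP, the founding member of the other ATG8 branch, had 3787 and 4105 reads, a ratio of 1.06 (1.02 to 1.11). GABARAPL1 had 2269 and 2211 reads, a ratio of 0.957 (0.902 to 1.02). GABARAPL2 had 1599 and 1634 reads, a ratio of 1.00 (0.937 to 1.08). For both of these the interval included 1. MAP1LC3A was barely detected, with 4 reads in shControl and 1 in shPPIL1, a ratio of 0.246 with an interval from 0.00499 to 2.48.

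The order of levels in the family changed at the top. Per length, MAP1LC3B was the highest in shControl at 77.8 FPKM, followed by GABARAP at 70.0, GABARAPL2 at 40.0 and GABARAPL1 at 38.8. In shPPIL1, GABARAP led at 75.6 FPKM, ahead of MAP1LC3B at 60.7. The share of MAP1LC3B in the family's reads was 47.2% (exact interval 46.4 to 48.0%) in shControl and 40.3% (39.5 to 41.1%) in shPPIL1. By summed FPKM it was 34.3% and 28.3%. MAP1LC3B stood at 0.723 (0.683 to 0.766) of its control proportion to GABARAP, at 0.804 (0.750 to 0.862) of that to GABARAPL1 and at 0.767 (0.709 to 0.829) of that to GABARAPL2. Within the GABARAP branch, GABARAPL1 stood at 0.899 (0.835 to 0.968) of its control proportion to GABARAP.

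**Figure D3:**
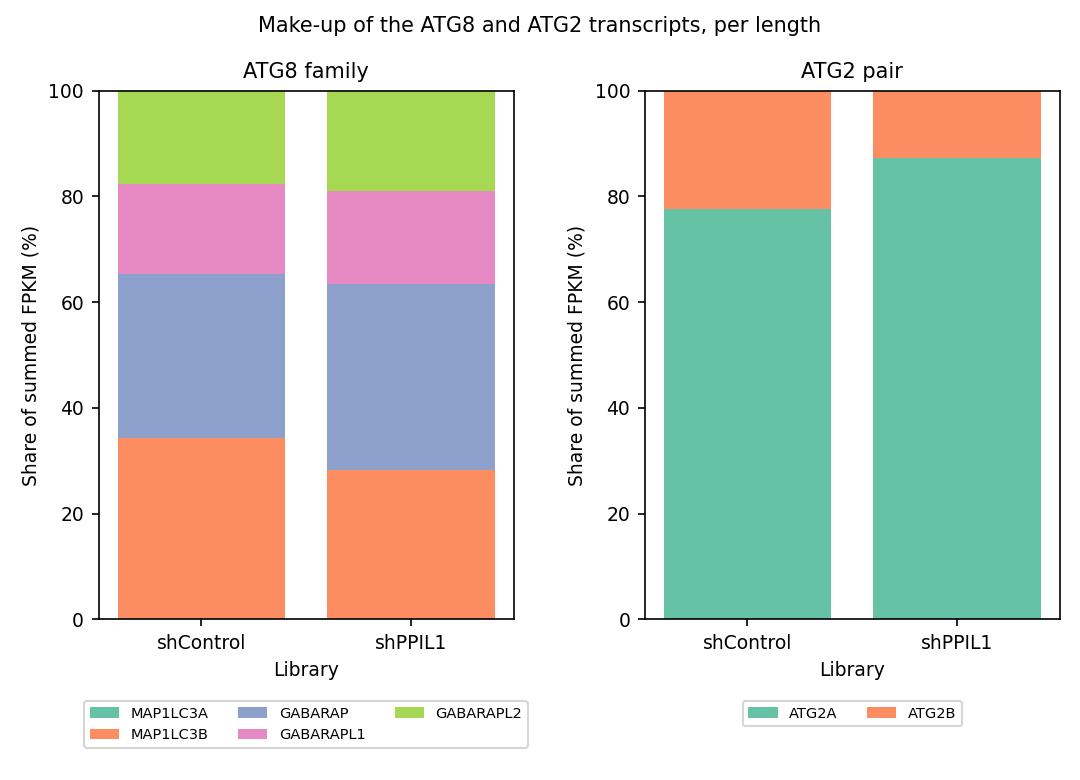
Share of summed FPKM (y axis, %) held by each gene of the ATG8 family (left) and of the ATG2 pair (right) in the shControl and shPPIL1 libraries. MAP1LC3B goes from 34.3% to 28.3% and ATG2B from 22.4% to 12.8%, while MAP1LC3A is too rare to be visible.

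MAP1LC3B has a near-identical copy, MAP1LC3B2. Of 100-base windows along the MAP1LC3B transcript with the longest coding sequence, 8.11% matched MAP1LC3B2 exactly. The row of the copy held 117 reads in shControl and 123 in shPPIL1. The sum of both rows gave a log2 ratio of -0.37, compared with -0.38 for MAP1LC3B alone. How reads matching both places were counted is not given in the sources used here. BECN2, a relative of BECN1, had 0 reads in both libraries. The only other member with a shared window was ATG12, at 0.472% of its windows.

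Of the initiation complex, ULK1 was slightly higher, and ATG101 and RB1CC1 were slightly lower. ULK1, the kinase that starts autophagy, had 2855 and 3174 reads, a ratio of 1.09 (1.04 to 1.15). ATG101, which stabilises ATG13 in the complex, had 2208 and 1944 reads, a ratio of 0.865 (0.813 to 0.920). RB1CC1, the scaffold also called FIP200, had a ratio of 0.938 (0.885 to 0.995). ATG13, the adaptor, had a ratio of 0.945 with an interval that included 1 (0.8911 to 1.0025). None of the 4 was called at 1.2-fold, and the group's median of -0.09 was the lowest of the role groups.

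Set against ULK1, the partners' proportions were 0.792 (0.731 to 0.858) for ATG101, 0.859 (0.795 to 0.928) for RB1CC1 and 0.865 (0.800 to 0.936) for ATG13. All 3 intervals lay below 1, although that of ATG13's own ratio included 1. ULK1 was the only kept gene of the complex with a ratio above 1, so proportions below 1 follow from this choice of reference. ULK2, the paralog of ULK1, had 6 reads in each library, so the ULK transcripts of these cells were almost all ULK1 (99.8% of the pair's reads in both).

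In the lipid kinase group, ATG14 and AMBRA1 differed in opposite directions. ATG14 directs the kinase to the site where autophagosomes form. It had 1465 reads in shControl and 1830 in shPPIL1, or 7.80 and 9.70 FPKM. The ratio was 1.23 (1.15 to 1.32), and since this interval spans 1.2 the call rests on a narrow margin. Of all kept genes, 8.31% had a ratio as high or higher. ATG14 lies at chr14:55366391-55411830 (GRCh38, minus strand), with 10 exons.

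AMBRA1, a regulator of BECN1 and of ULK1, had 1467 and 1280 reads, with a ratio of 0.857 (0.795 to 0.925). Its interval excluded 1, but the difference did not reach 1.2-fold. UVRAG, which takes the place of ATG14 in a kinase complex of endosomes, had a ratio of 1.07 (0.987 to 1.17). The shared core was level: PIK3C3, the catalytic subunit, had a ratio of 0.954 (0.882 to 1.03), PIK3R4, its regulatory partner, 1.07 (0.988 to 1.16), and BECN1 0.968 (0.921 to 1.02). The median of the 6 genes was 0.03.

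Compared with ATG14, the proportion of BECN1 stood at 0.789 (0.724 to 0.860), that of PIK3C3 at 0.778 (0.700 to 0.864) and that of AMBRA1 at 0.699 (0.630 to 0.774) of the control. UVRAG over ATG14 stood at 0.875 (0.784 to 0.977). ATG14 had the highest ratio of the group, so proportions below 1 follow from this choice of reference. BECN1 was the most abundant of the group per length, at 38.4 and 37.7 FPKM, and the other 5 genes lay between 4.75 and 9.70 FPKM in either library.

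The conjugation genes lay close to equal, with a median of 0.02 and no call at 1.2-fold. By the interval alone 1 of the 10 genes was higher and 1 lower, against 24.6% and 26.4% of all kept genes. The other 8 had an interval that included 1. Among these were ATG4C, ATG4D and ATG10, the kept members with the fewest reads and so with wide intervals. The log2 ratios of the 10 genes ran from -0.18 (ATG4C) to 0.17 (ATG12). ATG12, the ubiquitin-like protein joined to ATG5, had 1654 and 1892 reads, a log2 ratio of 0.17 (0.07 to 0.26). ATG5 had 2947 and 2803 reads, a ratio of 0.934 (0.887 to 0.984). ATG16L1, which completes the complex with both, had a ratio of 0.952 (0.897 to 1.01).

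ATG7, the activating enzyme shared by both systems, had a ratio of 1.05 (0.977 to 1.12). The conjugating enzymes ATG3, which acts on ATG8, and ATG10, which acts on ATG12, had ratios of 0.973 (0.928 to 1.02) and 1.05 (0.942 to 1.18). All 3 intervals included 1.

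The ATG4 proteases trim ATG8 proteins before conjugation and release them afterwards. ATG4B, the most abundant at 16.7 FPKM in both libraries, had a ratio of 0.981 (0.924 to 1.04). ATG4A followed at 12.5 and 13.4 FPKM, a ratio of 1.06 (0.978 to 1.15). ATG4D had 409 and 453 reads, a ratio of 1.09 (0.950 to 1.25), and ATG4C had 381 and 342 reads, a ratio of 0.882 (0.760 to 1.02). At these read numbers a difference of the size seen for ATG5 or ATG12 was not detectable for ATG4C or ATG4D.

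Among the receptors, SQSTM1 and OPTN were higher and NBR1 lower, by small factors with narrow intervals. SQSTM1, also called p62, binds ubiquitin and ATG8, and was the most abundant member, with 46482 reads in shControl and 53361 in shPPIL1, or 396 and 453 FPKM. Its ratio was 1.13 (1.11 to 1.14), a log2 ratio of 0.174 (0.156 to 0.192). Scaled by total counted reads, the log2 ratio of SQSTM1 was 0.194, outside this interval, which does not cover the choice of scaling. OPTN, a receptor for mitochondria and bacteria, had 17299 and 20220 reads, a ratio of 1.15 (1.13 to 1.17). NBR1, which resembles SQSTM1 in its domains, had 8332 and 7840 reads, a ratio of 0.924 (0.896 to 0.954).

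None of the 5 receptors reached 1.2-fold, and their median was 0.04. TAX1BP1 had a ratio of 0.975 (0.950 to 1.00) and CALCOCO2, also called NDP52, 1.03 (0.990 to 1.06), and both intervals included 1. The proportion of NBR1 to SQSTM1 stood at 0.820 (0.793 to 0.847) of the control. SQSTM1 held 57.8% of the receptors' summed FPKM in shControl and 59.6% in shPPIL1. STX17, the membrane fusion protein of the completed autophagosome, had 2882 and 3286 reads, a ratio of 1.12 (1.07 to 1.18).

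**Figure D4:**
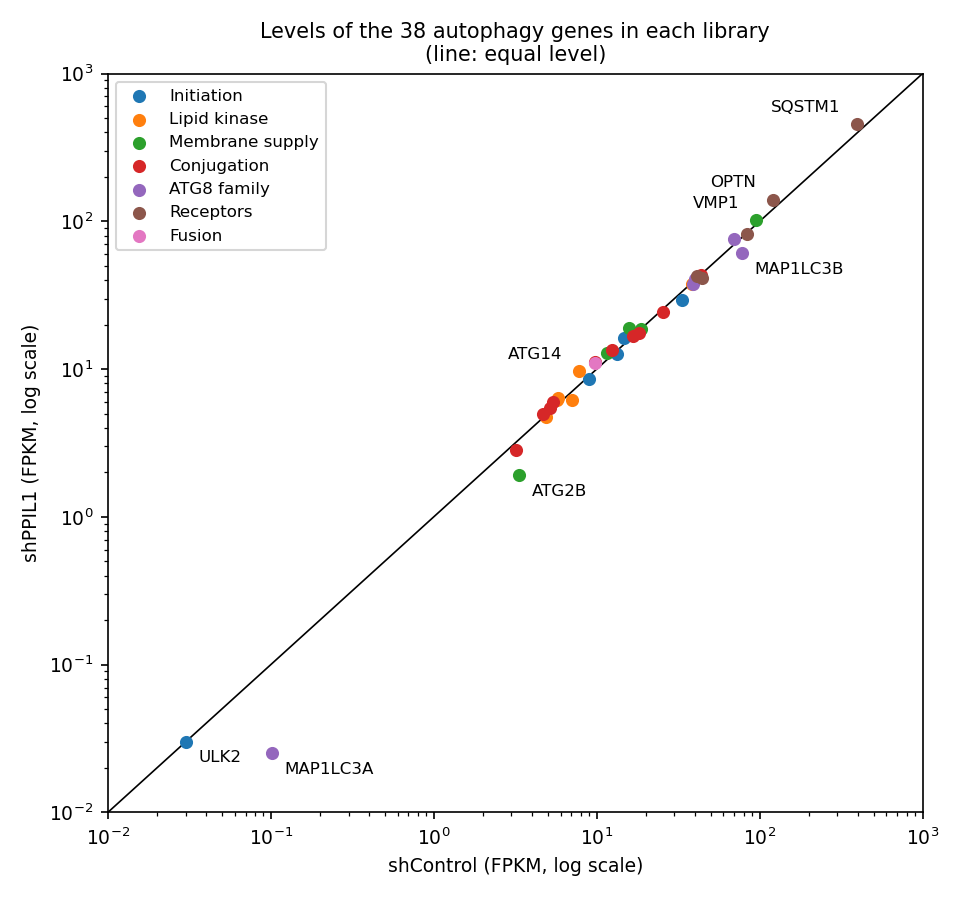
FPKM in shControl (x axis) against FPKM in shPPIL1 (y axis), both on log scales, for all 38 autophagy genes, with the line of equal level. Levels run from 0.0303 FPKM in shControl for ULK2 to 396 for SQSTM1, and ATG2B and MAP1LC3B are the kept genes farthest below the line.

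Some members share exon sequence with a gene on the opposite strand, and the strand setting of the counts is not given in the sources used here. In 6 members at least 20% of the exon bases lay under an opposite-strand exon: SQSTM1 (53.0%, with MRNIP), ATG101 (42.7%), BECN1 (37.6%, CNTD1), GABARAP (32.4%), ATG7 (32.2%, VGLL4) and WIPI1 (29.4%, ARSG). The MRNIP row had 177 and 147 reads, few beside SQSTM1. CNTD1 had 25 and 36 reads, and ARSG had 401 and 368. The partners of ATG101 (AC025259.1) and GABARAP (AC120057.3) had no row among the counts, so their reads could not be checked. VGLL4 had 1671 and 1726 reads, a number close to that of ATG7, with a ratio of 1.01 (0.948 to 1.09). For ATG2B the overlap, with GSKIP, was 3.06%, for MAP1LC3B it was 2.23%, and for ATG14 it was 0.00%.

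The hexamer GATCAT, which was picked in an earlier search of these same data for words whose carriers differ from other genes, stood in the 3' UTR of both members called lower, and also in that of ATG14. The sites are shown because these are the 3 called members. Each is given with 9 bases on either side, on the transcript strand, from GENCODE release 29 (GRCh38), with the hexamer in capitals. The ATG2B sites lie at chr14:96285438-96285461 and chr14:96282040-96282063, the MAP1LC3B site at chr16:87403187-87403210 and the ATG14 site at chr14:55368194-55368217.
ATG2B, first site: ccgacgagaGATCATtggaagctg
ATG2B, second site: acatttcagGATCATgctaggcac
MAP1LC3B: ccaatcacaGATCATgaaacagta
ATG14: tcagcaggaGATCATtttcagctc

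ATG2B held the hexamer at 2 places in the coding sequence as well. In all, 8 of the 36 kept members (22.2%) carried it in the 3' UTR, against 23.7% of 12112 kept genes with a coding transcript. The others were PIK3C3, UVRAG, AMBRA1, ATG5 and ATG10, whose ratios lay between 0.857 and 1.07. Only the transcript with the longest coding sequence was searched for each gene, and it need not be the longest transcript. Sites in a gene's other transcripts are not counted. The 3' UTR searched was short in some members, with 52 bases in TAX1BP1 and 120 in GABARAPL1. The median log2 ratio was -0.08 for the 8 carriers and 0.08 for the 22 members without it in the 3' UTR and the coding sequence. The 6 members with the hexamer in the coding sequence only had a median of -0.08 as well. Over the 12112 kept genes with a coding transcript the medians were -0.03 in the 3' UTR, -0.02 in the coding sequence only and 0.02 without it. The median 3' UTR length was 2070 bases in the 8 carriers, 918 in the 6 members with the hexamer in the coding sequence only and 1012 in the 22 without it. Over the 12112 kept genes with a coding transcript it was 2745, 793 and 653 bases in the same order. The hexamer was picked in these same data for such differences, so the medians are no independent check of it. The part of the hexamer in these differences was not tested.

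The promoters were searched for the E-box CACGTG, the core of the element bound by TFEB and TFE3, transcription factors of lysosomal and autophagy genes, and for GTAAACA, a FOXO motif, on both strands. RefSeq promoters (GRCh38.p14, 250 bases before to 50 after the start site) were matched for 33 of the 38 members. ATG4D, MAP1LC3A, RB1CC1, STX17 and UVRAG were not matched. The E-box stood in 2 of the 33 promoters (6.06%), those of ATG14 and ATG3, against 10.1% of the promoters of kept genes and 7.43% of all. It lies close to the start site in both genes, at 21 bases before it in ATG14 and at 18 before and 6 after it in ATG3. The windows are shown on the gene's strand, with the E-box in capitals, from chr14:55411834-55411863, chr3:112561963-112561992 and chr3:112561940-112561969.
ATG14: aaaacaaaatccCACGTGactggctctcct
ATG3, first E-box: cctttctcacgtCACGTGccgggagagtct
ATG3, second E-box: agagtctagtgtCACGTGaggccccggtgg

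Of these genes, ATG14 was called higher and ATG3, with a pair of E-boxes, had an interval that included 1. The FOXO motif stood in 1 member promoter (3.03%), that of CALCOCO2, against 2.34% of the promoters of kept genes and 3.41% of all. Over the 10273 kept genes with a promoter entry, the median log2 ratio was -0.00020 with the E-box and -0.0030 without it.

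Other genes of the pathway were listed by role. Of 60 kept genes, 7 (11.7%) were higher and 2 (3.33%) lower at 1.2-fold, against 8.32% and 9.52% of all kept genes, and their median log2 ratio was 0.02. CALCOCO1, a receptor related to CALCOCO2, had 1170 and 1557 reads, a ratio of 1.31 (1.21 to 1.41). TOLLIP, a ubiquitin-binding adaptor, had a log2 ratio of 0.27 (0.22 to 0.32). ATL3, a receptor for tubules of the endoplasmic reticulum, was lower, with a ratio of 0.817 (0.787 to 0.848). The other 15 of the 18 further receptors were not called. By the interval alone 8 of the 18 were higher and 7 lower, against 24.6% and 26.4% of all kept genes.

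Among other core factors, EPG5, a tether of autophagosomes and lysosomes, had a ratio of 1.21 (1.12 to 1.32). RUBCN, an inhibitor of the kinase complex that holds UVRAG, had 1.23 (1.10 to 1.37), and ATG16L2 1.24 (1.03 to 1.48). TECPR1 was lower at 0.768 (0.675 to 0.872). None of the 12 genes of tethering and fusion was called, and the list median was 0.08. By the interval alone 5 of the 12 were higher and 1 was lower, against 24.6% and 26.4% of all kept genes.

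The kept regulators above the pathway differed by less than 1.2-fold, with FOXO3 and TSC1 as the exceptions. MTOR, the kinase that restrains ULK1, had a ratio of 0.982 (0.944 to 1.02), and TFE3 1.00 (0.957 to 1.05). TFEB had 107 and 102 reads, a ratio of 0.937 (0.707 to 1.24), an interval too wide to show a difference of the size seen for most members. FOXO3 was higher at 1.23 (1.14 to 1.33), as was TSC1, an inhibitor of MTOR signalling, at 1.21 (1.14 to 1.28). ATF4, a stress transcription factor with targets among autophagy genes, had 24934 and 22165 reads, a ratio of 0.873 (0.858 to 0.889). Of the 19 kept genes of nutrient and transcription control, 2 were called higher and 0 lower, against 8.32% and 9.52% of all kept genes. By the interval alone 5 were higher and 4 lower, against 24.6% and 26.4%. Beside FOXO3 and TSC1, the higher genes were RRAGD at 1.19 (1.13 to 1.26), FLCN at 1.12 (1.05 to 1.18) and FNIP1 at 1.09 (1.03 to 1.15). Beside ATF4, the lower genes were PRKAA1 at 0.930 (0.907 to 0.954), PRKAA2 at 0.866 (0.801 to 0.936) and DEPTOR at 0.866 (0.780 to 0.961), subunits of AMPK and an inhibitor of MTOR.

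**Figure D5:**
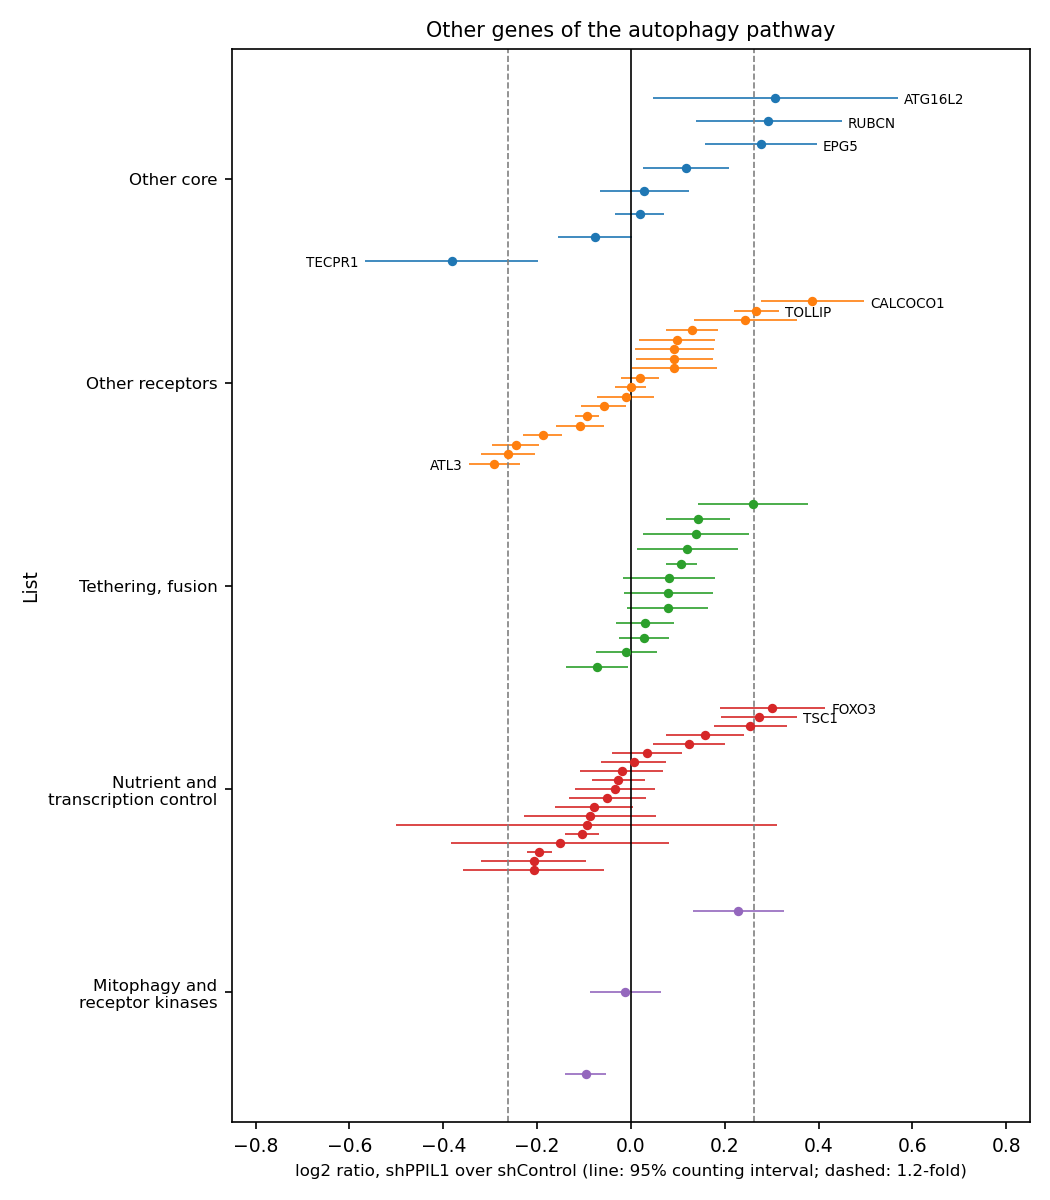
Log2 ratio of shPPIL1 over shControl (x axis) for 60 other autophagy pathway genes in 5 lists (y axis), with 95% counting intervals as lines and 1.2-fold as dashed lines. The 7 genes called higher and 2 called lower are named.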

How the data were processed

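Polyadenylated RNA from 1 shControl and 1 shPPIL1 culture was sequenced, per the labels' protocols. The files deposited by the authors hold unnormalised whole-number counts for each gene and, for each library, FPKM values. Count divided by library total and FPKM gave a whole-number length (within 0.001 bases) for 99.9% of genes above 0. The genome build is hg38, per the submitters' processing notes. Aligner, counter, annotation and strand setting: not given in the sources used here. Libraries were tied to columns by their labels, and 7 other count columns, named in the label of neither library, were not used.

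Libraries were scaled by TMM (edgeR 4.0.16 in R 4.3.3), with factors of 0.993 for shControl and 1.01 for shPPIL1. Genes reaching 1 CPM in at least 1 library were kept. Intervals are exact (Clopper-Pearson, scipy 1.17.1), and reads amplified by PCR are not independent molecules. Proportions of 2 genes (17 pairs) are conditional odds ratios with exact intervals. The intervals and the 1.2-fold calls were tested on simulated counts that held counting error only, with no variation between cultures. The library scaling, proportions and sequence steps were not simulated. All 38 members were eligible to be named, with PPIL1, MTOR, TFEB, TFE3, FOXO3, ATF4, near-identical copies and up to 2 called genes per direction of each other list. ATG16L2, PRKAA1, PRKAA2, DEPTOR, RRAGD, FLCN, FNIP1 and the hepatocyte and leukocyte markers named are outside that rule. All of these but the markers were named after their values were seen. The members, lists, 1.2-fold limit and hexamer were chosen with earlier results of these data known. Alternatives were other library scaling (including DESeq2 1.42.0 size factors), filters, folds and log2(FPKM + 1) or log2(FPKM + 0.1).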

Additional observations from a re-analysis of the deposited data

How the results depend on the processing

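No paired analysis was possible because each group holds 1 library, and for the same reason no library could be left out. With total counted reads in place of TMM, 2 members were called higher, ATG9A joining ATG14. By the interval alone 10 were higher and 7 lower, and at 1.5-fold 0 were higher and 1 lower, ATG2B. With DESeq2 size factors, with centring on the median gene, without a filter and at 5 CPM, the calls were ATG14, ATG2B and MAP1LC3B each time. The mean log2 ratio of membrane supply was -0.063, against a median of 0.05, and the mean includes ATG2B. With log2(FPKM + 1), PPIL1 stood at -3.24 and ATG2B at -0.58, since the added 1 shrinks low levels. The share of MAP1LC3B changed by -6.91 percentage points by reads and -6.03 by FPKM, and that of ATG2B by -15.1 and -9.55. Of 260 recomputed gene values, 3 changed sign, all of them WIPI1 near 0. The 260 include 37 values without a filter and 37 at 5 CPM. These could not change, because a filter alters only which genes are kept and leaves each ratio as it was.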
